A study of Mus musculus with 2 samples.

Results

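The surrogate light chain genes Vpreb1, Vpreb2, Vpreb3 and Igll1 and the V(D)J recombination genes Rag1, Rag2 and Dntt were read in single cells of popliteal lymph nodes (PLNs), the draining nodes of the lower hindlimb. The 7 genes were chosen by symbol, and all 7 are among the 32285 genes listed in both libraries. The mice were male TNF-transgenic (TNF-Tg) animals of 1 line on a C57BL/6 background, which overproduce TNF and develop inflammatory-erosive arthritis. The Early library came from mice of 5 to 6 months and the Advanced library from mice older than 8 months. Each library pooled 6 PLNs of 3 mice, and live nucleated cells were sorted with no lineage selection. Both groups carried the transgene. With 1 library per stage no difference between the stages has a replicate check, no p-value was computed, and age, stage of arthritis and library cannot be told apart.

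B and T lymphocytes assemble their antigen receptor genes from V, D and J segments. RAG1 and RAG2 together form the recombinase that cuts the DNA at these segments, and terminal deoxynucleotidyl transferase, encoded by Dntt, adds bases at the joints. In B cell precursors the heavy chain first reaches the surface with a surrogate light chain, made of a VpreB protein (Vpreb1 or Vpreb2) and λ5 (Igll1), which together with Cd79a and Cd79b forms the pre-B cell receptor. Vpreb3 encodes a related protein that binds the heavy chain inside the cell. In the adult these steps are known from bone marrow and thymus, so cells carrying these transcripts in a lymph node can be compared with mature B cells and with the T lineage through Cd79a, a signalling chain of the B cell receptor, and Cd3e, a chain of the T cell receptor complex.

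In the GRCm38 assembly (GENCODE M21) Igll1 lies at chr16:16860671-16863985 and Vpreb1 at chr16:16868403-16870843, both on the minus strand with 4417 bases between them. Vpreb2 lies on the plus strand at chr16:17980428-17981273, with 1109584 bases and 60 genes, 36 of them protein-coding, between it and Vpreb1. The second exons of Vpreb1 and Vpreb2 are both 576 bases long and 97.57% identical, differing at 14 bases, and their last 100 bases differ at 3. Reads near the 3′ end can therefore fall on either gene, and the split of UMIs between Vpreb1 and Vpreb2 is uncertain. Vpreb1 also overlaps Top3b on the opposite strand. Rag2, at chr2:101624718-101632529 on the plus strand, and Rag1, at chr2:101638282-101649501 on the minus strand, are 5752 bases apart, and the gene model B230118H07Rik overlaps both of them, antisense to Rag2 and on the strand of Rag1. Vpreb3 lies at chr10:75943057-75949657 and Dntt, with 12 exons, at chr19:41029275-41059525, both on the plus strand.

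The likeness of Vpreb1 and Vpreb2 extends to sequence before their RefSeq starts. RefSeq promoter sequences (GRCm38.p6) were found for all 7 genes, and a stretch of 106 bases was shared by Vpreb1 (chr16:16869256-16869361, minus strand) and Vpreb2 (chr16:17980315-17980420, plus strand) with 2 differing bases, an identity of 98.1%. For Vpreb1 this stretch ends directly before the start of one transcript and yet lies within the span given above, because other GENCODE transcripts of the gene begin farther upstream. They are shown because this is the pair whose counts are hardest to separate, with the differing bases in capitals.
Vpreb1: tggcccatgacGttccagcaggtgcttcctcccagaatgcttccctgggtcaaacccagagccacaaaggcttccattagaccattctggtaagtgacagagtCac
Vpreb2: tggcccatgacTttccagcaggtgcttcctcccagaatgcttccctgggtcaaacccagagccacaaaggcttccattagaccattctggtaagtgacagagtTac
The 250 bases before the RefSeq start of Igll1 (chr16:16863986-16864235, minus strand), the surrogate light chain partner of both, are shown with the matches of CAGGTG and TGTGGT on either strand in capitals.
Igll1: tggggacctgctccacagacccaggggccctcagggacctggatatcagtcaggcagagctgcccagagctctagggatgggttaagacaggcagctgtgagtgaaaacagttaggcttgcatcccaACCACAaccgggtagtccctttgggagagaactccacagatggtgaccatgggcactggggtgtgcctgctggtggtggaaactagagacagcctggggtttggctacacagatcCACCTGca
The E-box letters CAGGTG, searched on both strands of the 250 bases before each start, occurred for Vpreb1, Vpreb2, Igll1 and Rag1, 4 of 7, against 17.22% of 32851 windows of the same length. The RUNX-type letters TGTGGT occurred for Vpreb3, Igll1 and Rag1, 3 of 7, against 14.05% of windows. The EBF palindrome, also searched, occurred for 0 of 7, against 0.7793% of windows. These matches describe letters and not binding.

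The libraries held 67610110 Early and 83148059 Advanced unique molecular identifiers (UMIs, each 1 counted transcript molecule), and 8221 and 8183 cells with at least 200 genes were compared, with medians of 6643 and 7837 UMIs per cell. Levels are given as CPM, UMIs of a gene per 1e+06 UMIs of the cells named, and all intervals are exact at 95% and reflect counting error alone. The libraries shared 20 cell barcodes, 0 of them among the precursor cells described below. Mature B-cell-like cells made up 89.2% of Early and 67.5% of Advanced cells, and T-cell-like cells 1.68% and 12.3%. Lineage genes were also read outside their lineage. Cd79a had a UMI in 54.8% of Early and 47.8% of Advanced macrophage or monocyte-like cells, and Cd3e in 0 of 124 and 6.70%. The parts of free RNA and of doublets in these UMIs were not tested.

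The first comparison asked how the 7 genes differed between the stages over whole libraries. Of the 7 genes, 6 were higher in the Advanced library by more than 2-fold with the whole interval of the ratio, where 4.21% of the 15522 genes compared were higher by this rule and 0.251% lower. Vpreb3 was the exception.

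Among the surrogate light chain genes, Vpreb1 had 43 UMIs in 31 Early cells (0.636 CPM) and 1623 UMIs in 151 Advanced cells (19.5 CPM), a ratio of 30.7 (22.7 to 42.6). Igll1, encoding λ5, had 8 UMIs in 4 Early cells and 740 UMIs in 86 Advanced cells, a ratio of 75.2 (38.0 to 175). Vpreb2 had 2 UMIs in 1 Early cell and 275 UMIs in 50 Advanced cells, a ratio of 112 with a wide interval (30.7 to 928) because of the 2 Early UMIs. These transcripts were concentrated in few cells, with up to 105 UMIs of Vpreb1 and 62 of Igll1 in a single Advanced cell. Vpreb3 was instead found in 55.4% of Early and 42.8% of Advanced cells, at 183 CPM (12397 UMIs) and 177 CPM (14699 UMIs), a ratio of 0.964 (0.941 to 0.987).

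The recombination genes were also higher in the Advanced library, by smaller ratios. Rag1 had 82 UMIs in 20 Early cells (1.21 CPM) and 901 UMIs in 206 Advanced cells (10.8 CPM), a ratio of 8.93 (7.12 to 11.3). Rag2, the partner of Rag1 in the recombinase, had 17 UMIs in 11 Early cells and 102 in 68 Advanced cells, a ratio of 4.88 (2.90 to 8.70). Dntt had 667 UMIs in 85 Early cells (9.87 CPM) and 2860 UMIs in 365 Advanced cells (34.4 CPM), a ratio of 3.49 (3.20 to 3.80). With each cell counted equally the directions were the same and the ratio of Vpreb1 was 18.1, that of Rag1 12.9, of Rag2 9.07 and of Dntt 5.05.

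**Figure D1:**
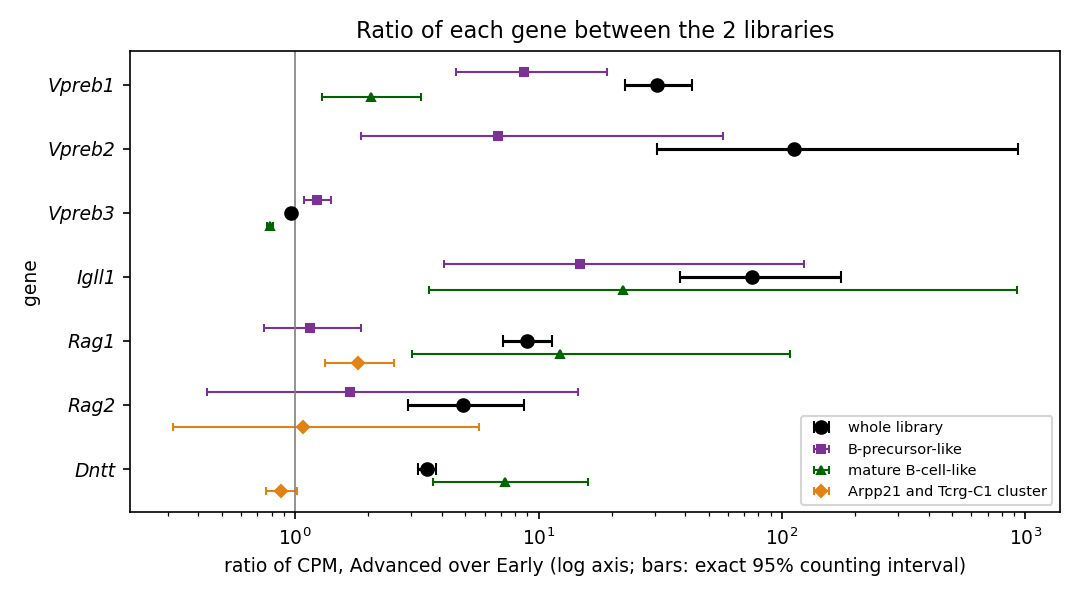
Ratio of CPM, Advanced over Early, for each of the 7 genes on a log axis, over the whole library and within 3 classes of cells; bars are exact 95% counting intervals, and a ratio is left out where the Early UMIs were 0 or the UMIs too few. Over the whole library 6 genes lie to the right of 1 by more than 2-fold, and Vpreb3 lies at 0.964.

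The 6 genes other than Vpreb3 are called precursor genes here, since mature B cells transcribe Vpreb3. At least 1 UMI of any of them was found in 123 Early cells (1.50%, 1.24% to 1.78%) and 616 Advanced cells (7.53%, 6.97% to 8.12%), a ratio of shares of 5.03 (4.14 to 6.16). In macrophage or monocyte-like cells, which should lack these genes, the share was 1 of 124 (0.806%) and 5 of 209 (2.39%), at median depths of 11805 and 8987 UMIs, so single UMIs are set beside these values. With at least 2 UMIs the shares were 0.876% and 4.17%, a ratio of 4.76 (3.68 to 6.22), and 0 macrophage or monocyte-like cells passed, which allows shares of up to 2.42% and 1.44% by a floor of 3 counts (exact upper limits 2.93% and 1.75%). After each cell was thinned to 2000 UMIs, which left out shallower cells and kept 8072 Early and 7882 Advanced cells, the shares were 0.632% and 3.65%, a ratio of 5.78 (4.28 to 7.95).

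The second question was in which cells the genes were read. Cells were clustered without the 7 genes, the immunoglobulin genes and most T cell receptor segment genes among the variable features. The T cell receptor γ genes, such as Tcrg-C1, were not left out. A B-precursor-like cluster, led by Tifa, Akap12, Sox4, Cecr2 and Myb, held 10 Early cells (0.122%) and 121 Advanced cells (1.48%), a ratio of shares of 12.2 (6.39 to 26.0). A cluster led by Arpp21 and Tcrg-C1 held 11 Early cells (0.134%) and 84 Advanced cells (1.03%), a ratio of 7.67 (4.08 to 16.0). The latter had T lineage genes among its leading genes (Tcrg-C1, Tcrg-C2, Trbc1) and is called by its leading genes. Both clusters are defined by genes other than the 7, but Xrcc6, Sox4, Myb and the other leading genes are what set them apart and are not findings.

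**Figure D2:**
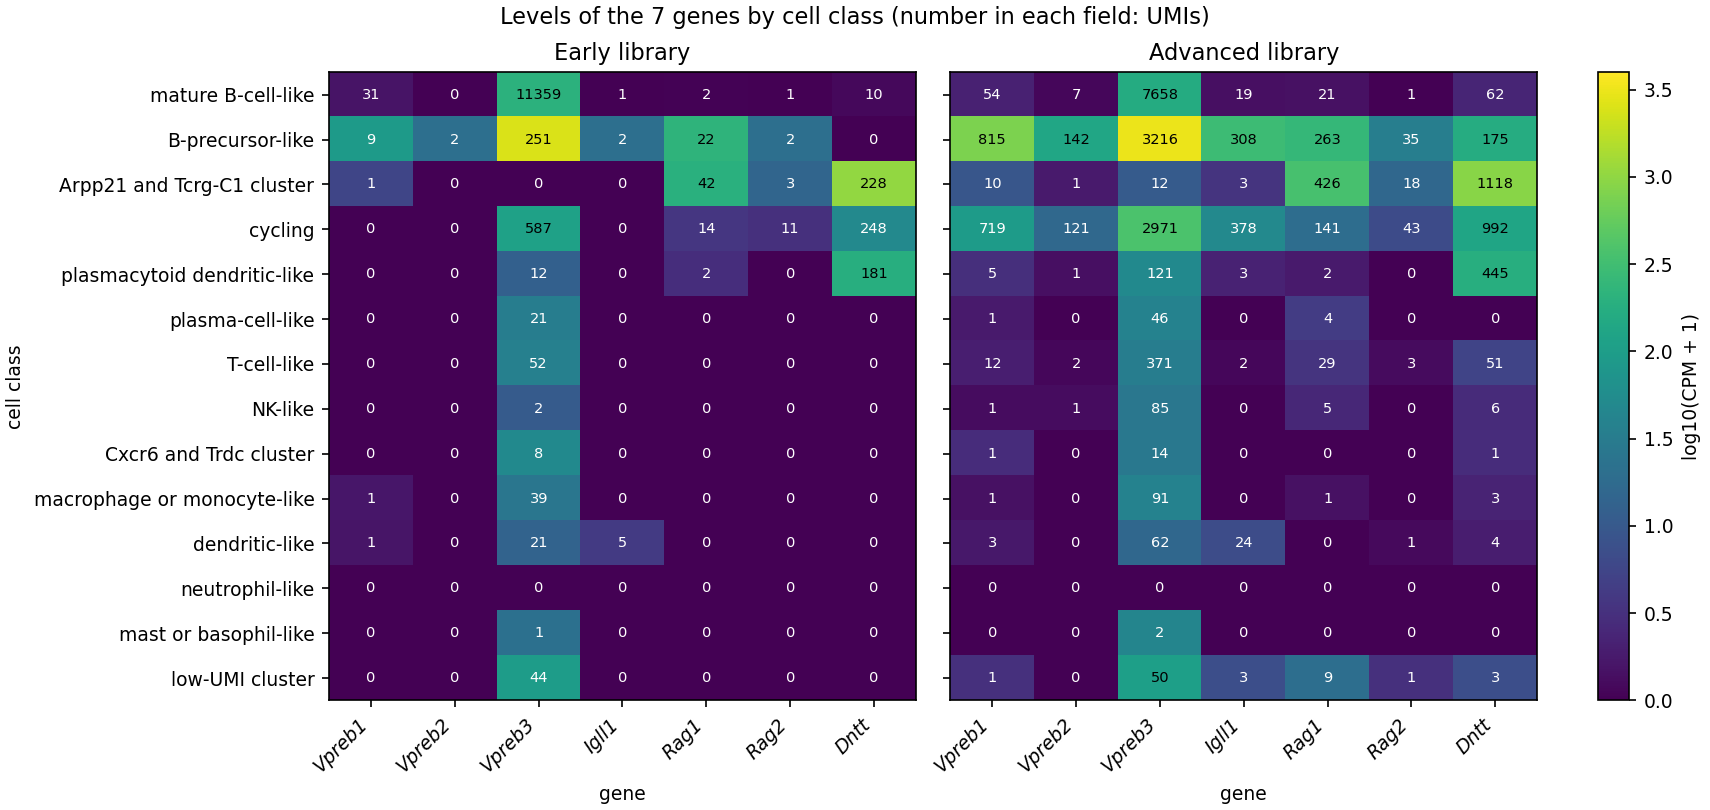
Level of each of the 7 genes (columns) in each class of cells (rows) in the Early and the Advanced library, coloured by log10(CPM + 1), with the UMIs in each field. Vpreb1, Vpreb2 and Igll1 are read in the B-precursor-like and cycling classes of the Advanced library (815 and 719 UMIs of Vpreb1), Dntt also in plasmacytoid dendritic-like cells of both libraries, and Vpreb3 in mature B-cell-like cells.

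B-precursor-like cells carried all 7 genes in the Advanced library. Compared with mature B-cell-like cells of that library, 7 of 7 were higher by the 2-fold rule, where 5.22% of 12391 genes were higher and 0.557% lower. Vpreb1 stood at 781 CPM (815 UMIs, in 35 of 121 cells) against 1.15 CPM in mature B-cell-like cells, and Igll1 at 295 CPM (308 UMIs, in 22 cells) against 0.405. Rag1 was read in 79 of the 121 cells (65.3%), at 252 CPM, and Rag2 in 26 cells (21.5%), at 33.6 CPM. Vpreb3 was read in 121 of 121 cells at 3084 CPM, 18.9 times (18.1 to 19.7) its level in mature B-cell-like cells, 163 CPM. Dntt was read in 16 cells (13.2%) at 168 CPM, and 1 of them held 46 of its 175 UMIs.

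The Early library held only 10 such cells, so a comparison within this class rests on few cells. Rag1 was read in 4 of them at 219 CPM (22 UMIs), a ratio of 1.15 (0.745 to 1.87), and Vpreb3 in 10 of 10 at 2497 CPM, with a ratio of 1.24 (1.09 to 1.41). For Rag1 and Vpreb3 these ratios of pooled levels were far below the 12.2-fold difference in the share of B-precursor-like cells. The Vpreb3 interval lay above 1, while that of Rag1 held 1. With each cell weighted equally the Rag1 ratio was 0.846, so its direction is not settled. After the thinning described above Rag1 was read in 3 of 10 Early and 47 of 120 Advanced cells. The ratio of these shares was 1.31 (0.420 to 6.56). All 9 Early UMIs of Vpreb1 lay in 1 of the 10 cells, so its ratio of 8.73 (4.58 to 19.2) depends on that cell. Igll1 and Vpreb2 had 2 Early UMIs each, with ratios of 14.8 (4.07 to 123) and 6.84 (1.86 to 57.1). Dntt had 0 Early UMIs there, and its Advanced level was at least 5.62 times a floor of 3 counts over the class. By the 2-fold rule Vpreb1, Igll1 and Dntt, 3 of 7, were higher within the class, where 0.105% of 5741 genes were and 0.0871% were lower. That rule takes UMIs as independent, although they lay in few cells. Per cell, after the thinning described above, Vpreb1 was read in 1 of 10 Early and 25 of 120 Advanced cells. The ratio of these shares was 2.08 (0.341 to 85.5). Igll1 was read in 0 of 10 and 20 of 120 cells, and Dntt in 0 of 10 and 10 of 120. The lower limits of their ratios were 0.411 and 0.187. Per cell, none of the 3 genes was thus separated from a ratio of 1.

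The Arpp21 and Tcrg-C1 cluster carried Rag1 and Dntt with few UMIs of the surrogate light chain genes. Dntt was read in 11 of 11 Early cells (1051 CPM; 228 UMIs) and 82 of 84 Advanced cells (923 CPM, 1118 UMIs), a ratio of 0.878 (0.761 to 1.02). Rag1 was read in 9 of 11 Early cells (194 CPM) and 55 of 84 Advanced cells (352 CPM), a ratio of 1.82 (1.32 to 2.56). The Early cells of this cluster were deeper, with a median of 24222 UMIs against 8433.5, so these shares of cells are not comparable. After the thinning described above Rag1 was read in 4 of 11 Early and 43 of 83 Advanced cells. The interval of that ratio of shares, 1.42 (0.518 to 5.46), held 1, so Rag1 was not separated per cell. Rag2 had 3 and 18 UMIs, at 13.8 and 14.9 CPM. Vpreb1 had 1 and 10 UMIs in these cells, Igll1 0 and 3, and Vpreb3 0 and 12, so Vpreb3 was lower there (9.91 CPM) than in T-cell-like cells of the Advanced library (32.0 CPM). Of the 3 members compared between stages in this cluster, 0 passed the 2-fold rule, where 0.38% of 6577 genes were higher and 0.137% lower.

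Cycling cells held the surrogate light chain in the Advanced library and not, at this depth, in the Early one. They numbered 185 Early and 256 Advanced cells with close median depths, 24198 and 25435 UMIs. On the B side, cells with more UMIs of Cd79a and Cd79b than of Cd3d, Cd3e and Cd3g, Vpreb1 had 0 UMIs in 145 Early cells and 708 UMIs in 31 of 196 Advanced cells (127 CPM), at least 155-fold higher against the floor of 3 counts. Igll1 had 0 and 376 UMIs (at least 82.1-fold), and Vpreb2 0 and 121 (at least 26.4-fold). Rag1 had 0 and 44 UMIs (at least 9.61-fold), and Vpreb3 stood at 160 and 532 CPM, a ratio of 3.33. The at-least folds take UMIs as independent, although a single cell held 90 of the Vpreb1 UMIs. By cells, 0 of 145 allows an Early Vpreb1 share of up to 2.51%, against 15.8% in the Advanced library. Over all cycling cells, thinned as above, the ratios of shares had lower limits of 3.29 for Vpreb1 and 2.53 for Igll1. Those of Vpreb2 (0.831) and Rag1 (0.514) lay below 1, so these genes were not separated per cell. On the T side, 38 Early and 58 Advanced cells, Rag1 stood at 9.56 and 44.7 CPM, with a ratio of 4.68 (2.66 to 8.88). It was read in 5 (13.2%, 4.41% to 28.1%) and 13 of these cells (22.4%, 12.5% to 35.3%), so the shares overlapped. Dntt stood at 111 and 332 CPM on the T side, a ratio of 3.00. Rag2, at 6.83 and 7.46 CPM there, had a ratio of 1.09 (0.466 to 2.69). Over all cycling cells 6 of 7 members passed the 2-fold rule upward, Rag2 (11 and 43 UMIs) being the exception, where 0.877% of 11065 genes passed upward and 0.389% downward.

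Dntt was also read outside the lymphoid precursor classes. It had a UMI in 53 of 65 Early (81.5%) and 107 of 128 Advanced (83.6%) plasmacytoid dendritic-like cells, at 178 and 182 CPM, with a ratio of 1.02 (0.859 to 1.22). These cells carried Siglech, a receptor that marks plasmacytoid dendritic cells, in 100% and 99.2% of cells. Rag1 had 2 UMIs in each library there and Rag2 0, while Vpreb1 had 0 and 5. Of all Dntt UMIs, these cells held 181 of 667 in the Early and 445 of 2860 in the Advanced library, and their share of cells was 0.791% and 1.56%. Of the 2 members compared in this class by the 2-fold rule, Dntt did not pass and Vpreb3 was higher (12 and 121 UMIs), where 0.379% of 8713 genes were higher and 0.0918% lower. By the same rule 5 of 15 B cell maturation genes and 7 of 16 T precursor genes compared were also higher in this class, and 0 lower. The part of free RNA in these differences was not tested.

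The third comparison asked whether cells with each gene carried Cd79a or Cd3e. In the Advanced library 117 of 151 Vpreb1 cells had Cd79a only (77.5%, 70.0% to 83.9%), 10 had Cd3e only, 21 both and 3 neither. Of 86 Igll1 cells 71 had Cd79a only (82.6%, 72.9% to 89.9%) and 1 Cd3e only. Of 50 Vpreb2 cells 41 had Cd79a only (82.0%, 68.6% to 91.4%) and 1 Cd3e only. Rag1 cells were more divided, with 122 of 206 Cd79a only (59.2%), 30 Cd3e only (14.6%), 48 both and 6 neither. Dntt cells were split as 171 of 365 with Cd79a only (46.8%), 59 with Cd3e only, 90 with both and 45 with neither. Among them, 62 of the 171 and 37 of the 45 were plasmacytoid dendritic-like cells. Over all Advanced cells 6244 of 8183 (76.3%) had Cd79a only and 608 Cd3e only (7.43%). The intervals of the Vpreb1, Igll1 and Vpreb2 shares held this 76.3%, so by this rule they were not separated from the library. In the Early library 29 of 31 Vpreb1 cells had Cd79a only, while Rag1 cells were 5 Cd79a only, 5 Cd3e only and 9 both of 20. Over all Early cells 7789 of 8221 (94.7%) had Cd79a only, so the Vpreb1 share lay near that of the library. Mature B-cell-like cells made up 27 of those 29, and 3 of the 27 had at least 2 Vpreb1 UMIs.

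**Figure D3:**
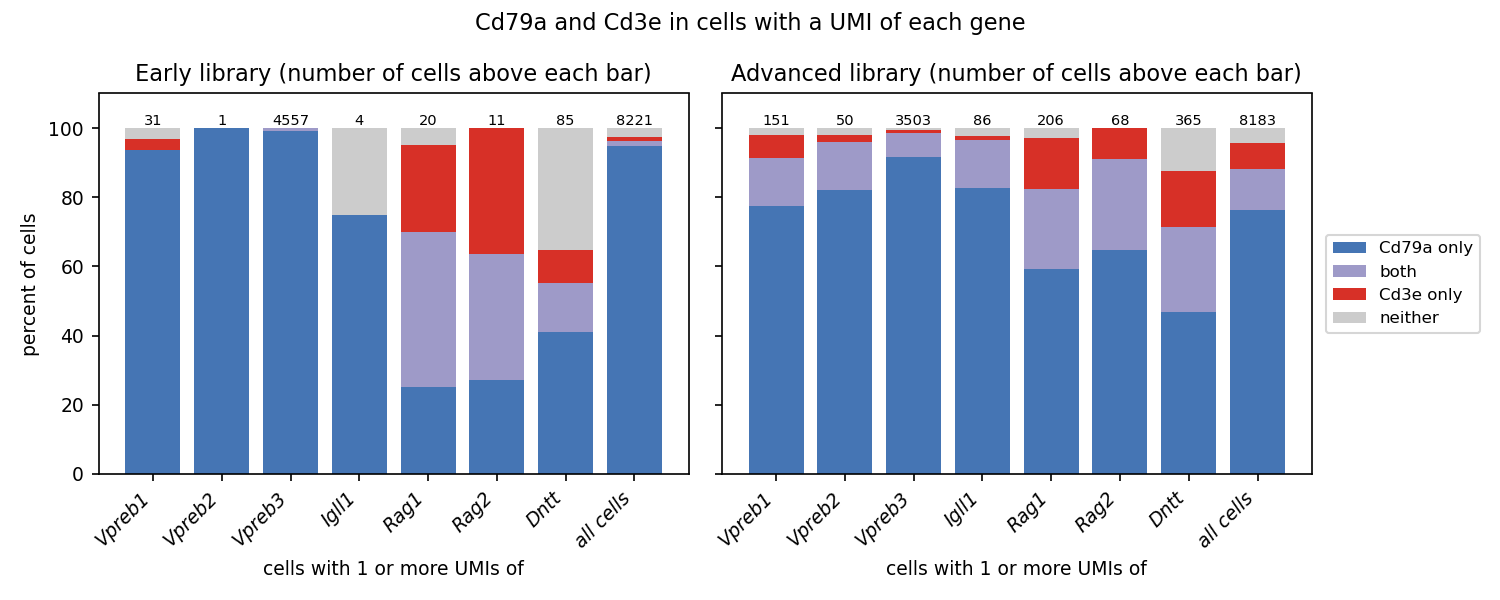
Percent of the cells with at least 1 UMI of each gene, and of all cells, that carried Cd79a only, Cd3e only, both or neither in the Early (left) and Advanced (right) library, with the number of cells above each bar. In the Advanced library Cd3e only made up 14.6% of Rag1 cells and 6.62% of Vpreb1 cells.

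Since Cd79a was read in about as many macrophage or monocyte-like cells as not, a single UMI of it separates the lineages poorly. Another rule took the larger of the summed UMIs of Cd79a and Cd79b (B side) and of Cd3d, Cd3e and Cd3g (T side). It was applied to cells with at least 2 UMIs of a member. Over all macrophage or monocyte-like cells it placed 91 of 124 Early (73.4%) and 134 of 209 Advanced cells (64.1%) on the B side. A B side call is thus not free of background. Of all cells, 96.3% of Early and 81.9% of Advanced ones were on the B side, and 2.35% and 15.6% on the T side. The counts below are to be read beside these shares. By that rule 60 Advanced Vpreb1 cells were on the B side and 4 on the T side. All 46 Igll1 cells and all 32 Vpreb2 cells with a side were on the B side, with 0 on the T side. Not all Igll1 cells were of the precursor or cycling classes. Among those with Cd79a only and at least 2 Igll1 UMIs, 5 were dendritic-like. Rag1 cells were 79 B side and 57 T side, and Dntt cells 128 and 91. Outside the plasmacytoid dendritic-like class the Dntt cells were 50 B side and 85 T side, the opposite order. In the Early library, with at least 1 UMI, Rag1 cells were 5 B side and 14 T side.

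**Figure D4:**
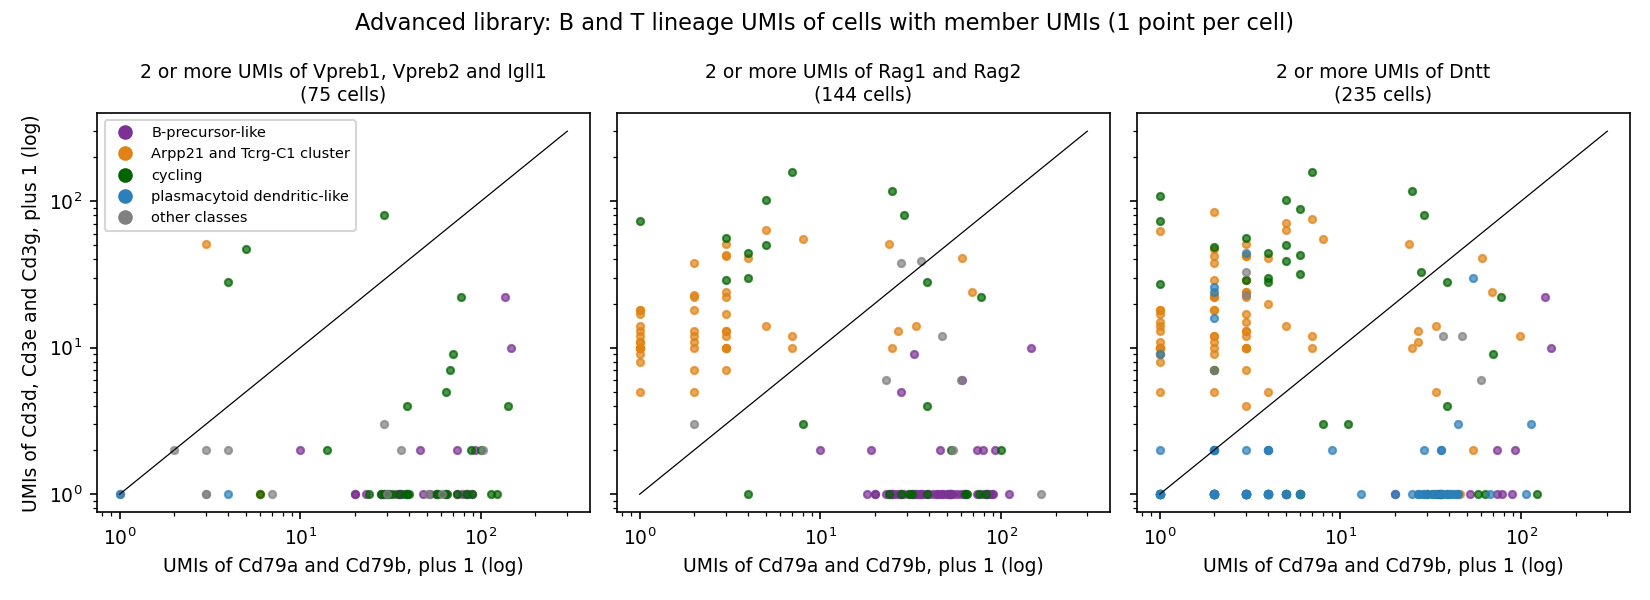
UMIs of Cd79a and Cd79b (x axis) against UMIs of Cd3d, Cd3e and Cd3g (y axis), both plus 1 on log axes, for Advanced cells with at least 2 UMIs of the surrogate light chain genes (75 cells), of Rag1 and Rag2 (144 cells) and of Dntt (235 cells), 1 point per cell, coloured by class; the line marks equal sums. Surrogate light chain cells lie mostly below the line, Rag and Dntt cells on both sides of it, and plasmacytoid dendritic-like cells at low sums in the Dntt panel.

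To describe how the genes were combined within a cell, cells were sorted by whether they held at least 2 UMIs of the surrogate light chain group (Vpreb1, Vpreb2 and Igll1), of the recombinase group (Rag1 and Rag2) and of Dntt, thresholds chosen after the data were seen. Outside the plasmacytoid dendritic-like class 33 Early and 236 Advanced cells passed. Of these, 13 Early (0.158% of all cells) and 139 Advanced cells (1.70%) were on the B side, and 20 (0.243%) and 92 (1.12%) on the T side, and 5 Advanced cells were on neither. In these counts the Early library held more cells on the T side than on the B side and the Advanced library the opposite. The Early counts are small, and the difference in order was not tested. On the Advanced B side, 10 cells with Dntt only and 5 with recombinase and Dntt lay in the Arpp21 and Tcrg-C1 cluster. By doublet score 1 Early and 8 Advanced cells were among those left out as an alternative.

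On the Advanced B side, the recombinase without surrogate light chain or Dntt was the most frequent combination outside the plasmacytoid dendritic-like class, 47 cells, 42 of them in the B-precursor-like cluster. Surrogate light chain alone was found in 28 cells, with the recombinase in 14, with Dntt in 11, 1 of them plasmacytoid dendritic-like, and with both in 15. On the T side, recombinase with Dntt was found in 50 Advanced cells, 41 of them in the Arpp21 and Tcrg-C1 cluster, and in 12 Early cells. Surrogate light chain with any combination was found in 4 Advanced T side cells and in 0 Early ones.

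The pairing of single genes followed the same lines. Of the 32 Advanced B side cells with at least 2 UMIs of Vpreb2, 32 had Vpreb1 and 31 had Igll1, and of 46 such Igll1 cells 42 had Vpreb1. Because Vpreb1 and Vpreb2 share most of their sequence, their joint presence can in part be shared reads, which was not tested. Of 79 B side Rag1 cells 73 had Vpreb3, 27 Rag2, 26 Vpreb1 and 23 Dntt. Of 57 T side Rag1 cells 54 had Dntt, 16 Rag2 and 4 Vpreb1.

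Within the B-precursor-like and cycling clusters of the Advanced library, B side cells with surrogate light chain (55 cells, median 15559 UMIs) and those with recombinase only (44 cells, median 6544.5 UMIs) differed in other genes. These groups were set by the members' UMIs, the deeper cells more easily pass a threshold, and cells of 1 library are no replicates, so the values are descriptions. Of the 55 cells 28 lay in the cycling cluster, which is led by cell cycle genes, against 2 of the 44. The 16 cell cycle genes together stood at 4967 CPM in cells with surrogate light chain and 1022 CPM in recombinase-only cells. The median per cell was 2854 and 272 CPM, and 1 recombinase-only cell held 43.3% of that group's cell cycle UMIs. Mki67, a proliferation marker, was read in 27 of 55 and 3 of 44 cells. Within the B-precursor-like cluster alone (27 and 42 cells, median 11915 and 6002.5 UMIs) the cell cycle genes stood at 451 and 324 CPM, with a ratio of 1.39 (1.08 to 1.80) and medians per cell of 267 and 257 CPM. Mki67 was read in 2 of 27 and 1 of 42 of these cells, so most of the difference in cell cycle genes lay between the clusters. Immunoglobulin light chain went the other way, with Igkc at a median of 1497 and 3866 CPM per cell, and Iglc1, the first λ constant gene, in 23 of 55 and 34 of 44 cells. Ms4a1, which encodes CD20, stood at 190 and 374 CPM, and Ighm, the IgM heavy chain, at 1595 and 3757 CPM. Il7r, the receptor for the cytokine IL-7, was at 161 and 190 CPM, with a ratio of 0.850 (0.650 to 1.12). Ptcra, the partner of the T cell receptor β chain in T precursors, had 0 UMIs in both groups. Within the B-precursor-like cluster alone Ms4a1 was at 397 and 418 CPM, with a ratio of 0.949 (0.744 to 1.21), while Igkc had medians of 2074 and 4013 CPM per cell, Iglc1 was read in 12 of 27 and 32 of 42 cells, and Ighm stood at 2166 and 4243 CPM.

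On the T side of the Arpp21 and Tcrg-C1 cluster and the cycling cluster, Advanced cells with Dntt and recombinase (52 cells, median 5586.5 UMIs) were set beside cells with Dntt and no recombinase (30 cells, median 18875 UMIs). The co-receptor genes were higher with recombinase, although these cells were shallower. Cd4 was read in 31 of 52 and 1 of 30 cells, Cd8a in 36 and 4, and Cd8b1 in 36 and 5. Ptcra stood at 90.2 and 30.2 CPM, with a ratio of 2.99 (1.78 to 5.19). The chemokine receptor gene Ccr9 stood at 435 and 96.3 CPM. Trac, the T cell receptor α constant gene, was at 168 and 30.2 CPM, with a ratio of 5.55 (3.45 to 9.34). Each group held 10 cells of the cycling cluster, and in the Arpp21 and Tcrg-C1 cluster alone (42 and 20 cells) Cd4 was read in 27 and 1 cells, Cd8a in 31 and 3, and Ptcra stood at 113 and 21.8 CPM.

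Other genes of recombination and of precursor cells were read from lists, with B-precursor-like set beside mature B-cell-like cells of the Advanced library. The clusters were formed on genes such as these, so the counts are descriptions, to be read beside the 5.22% of 12391 genes that were higher and the 0.557% that were lower in this comparison. Of 17 partners in recombination and end joining, 5 were higher by the 2-fold rule and 0 lower, with a median log2 ratio of 0.16 beside 0.28 for all genes. They were Xrcc6, the Ku70 subunit that holds broken ends (11.7 to 305 CPM), Lig4, the ligase of end joining (2.96 to 36.4 CPM), Polm, a polymerase related to Dntt (12.1 to 81.5 CPM), and Hmgb1 and Hmgb2, DNA-bending cofactors of the recombinase (498 to 1176 and 235 to 802 CPM). Of 13 genes of pre-B receptor signalling 0 were higher and 1, Bank1, was lower. Of 17 B lineage factors 8 were higher, among them Ebf1 (1539 to 3708 CPM) and Lef1 (3.49 to 133 CPM), and of 13 genes of IL-7 receptor and precursor surface 5 were higher, among them Il7r (2.96 to 198 CPM) and Cd93 (4.03 to 134 CPM). Of 15 genes of B cell maturation 1, Iglc1, was higher and 4 were lower (Cd74, H2-Ab1, Fcer2a and Cr2), of 16 cell cycle genes 5 were higher, and of 21 T precursor genes 6 were higher, with Ptcra at 0 in B-precursor-like cells. Between the stages within the B-precursor-like cluster, each of these lists had 0 genes higher and 0 lower, where 0.105% of 5741 genes were higher and 0.0871% lower. Against the 10 Early cells only 9 of 17 recombination partners, 9 of 21 T precursor and 5 of 16 cell cycle genes had enough UMIs to be compared.

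In the Arpp21 and Tcrg-C1 cluster beside T-cell-like cells of the Advanced library, 4 of 17 recombination partners were higher, including Xrcc6 (13.7 to 192 CPM) and Lig4 (2.76 to 28.1 CPM), where 8.61% of 10827 genes were and 2.47% were lower. Of 21 T precursor genes 6 were higher and 3 lower. Ptcra stood at 0.345 and 73.5 CPM and Ccr9 at 26.1 and 256 CPM, while Cd3d stood at 800 and 238 CPM and Trac at 408 and 121 CPM. Against mature B-cell-like cells, where 10.5% of 12519 genes were higher and 3.37% lower, 10 of 13 genes of pre-B receptor signalling were lower in this cluster, and so were Ebf1 (1539 to 160 CPM) and Pax5 (284 to 28.9 CPM), both factors of B lineage identity.

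The last question was the level of the genes in mature B cells, the class of 7333 Early and 5525 Advanced cells. The 6 precursor genes had at least 1 UMI in 0.518% of Early and 2.75% of Advanced mature B-cell-like cells, against 0.806% and 2.39% of macrophage or monocyte-like cells. The Early share lay below that of the latter cells and the Advanced share within their interval (0.781% to 5.49%), so no expression is read from these shares. At least 2 UMIs were found in 4 Early (0.0545%) and 9 Advanced cells (0.163%). Between the stages Vpreb1 stood at 0.564 and 1.15 CPM, with a ratio of 2.04 (1.29 to 3.28), and Dntt at 0.182 and 1.32 CPM, with a ratio of 7.26 (3.70 to 15.9). Igll1 had 1 and 19 UMIs, a ratio of 22.3 (3.54 to 925), and Rag1 had 2 and 21, a ratio of 12.3 (3.01 to 108). By the 2-fold rule 3 of the 5 members compared, Igll1, Rag1 and Dntt, were higher, where 0.892% of 13337 genes were and 0.045% were lower. Of 21 T precursor genes, which belong to another lineage, 13 were also higher in mature B-cell-like cells. The part of free RNA in these values was not tested.

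Vpreb3 was the member that mature B cells carried. It was read in 59.6% of Early and 52.7% of Advanced mature B-cell-like cells, at 207 CPM (11359 UMIs) and 163 CPM (7658 UMIs), a ratio of 0.790 (0.767 to 0.813). In macrophage or monocyte-like cells it was read in 11.3% and 12.4% of cells, at 24.9 and 39.1 CPM. After thinning to 2000 UMIs per cell the shares of mature B-cell-like cells were 31.3% and 24.6%, a ratio of 0.787 (0.735 to 0.842), and of macrophage or monocyte-like cells 3.31% and 3.37%. The level of Vpreb3 differed among clusters of mature B-cell-like cells by more than between the stages. It was highest in the cluster led by Cd55, Fcer2a and Zfp318 (312 and 257 CPM, ratio 0.824) and lowest in the one led by Fcrl5, Ahr, Apoe and Bhlhe41 (112 and 73.5 CPM, ratio 0.654, 0.605 to 0.707). The cluster led by Egr3 and Il4i1 stood at 141 and 149 CPM, with a ratio of 1.06 (0.958 to 1.17), and so lay on the other side of 1. Plasma-cell-like cells were at 32.5 and 38.9 CPM, near the level of macrophage or monocyte-like cells.

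Defining mature B cells per cell, by a UMI of Cd79a, Ms4a1 and Ighd and none of Cd3e, gave a Vpreb3 ratio of 0.952, and that gate also held cells of the precursor and cycling clusters. Without those clusters the ratio was 0.779, from 207 and 161 CPM.

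**Figure D5:**
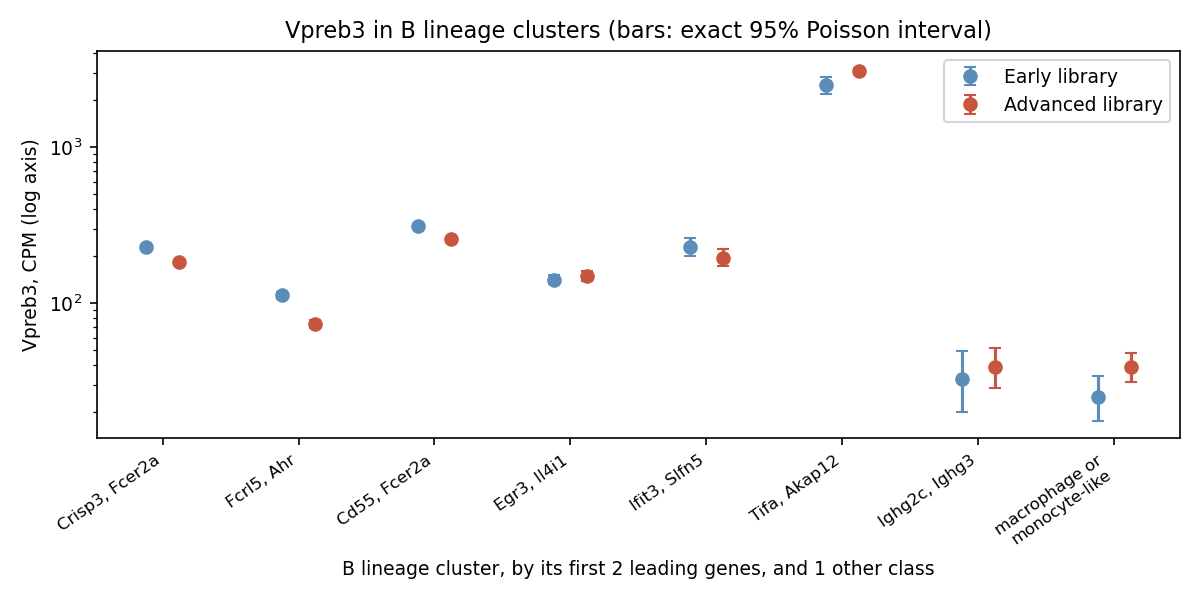
Vpreb3 in CPM (log axis) in each cluster of the B lineage, named by its first 2 leading genes, and in macrophage or monocyte-like cells, for the Early and Advanced libraries; bars are exact 95% Poisson intervals. The B-precursor-like cluster (Tifa, Akap12) stands at 2497 and 3084 CPM, and the Fcrl5 and Ahr cluster at 112 and 73.5 CPM.

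Outside these classes Igll1 was read in dendritic-like cells, with 5 UMIs in 2 Early cells and 24 UMIs in 8 of 199 Advanced cells (5.84 CPM), up to 7 in a cell, while Vpreb1 had 1 and 3 UMIs there. T-cell-like cells had at least 2 UMIs of the precursor genes in 0 of 138 Early and 9 of 1006 Advanced cells.

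The genes with the pattern most like each member were found by Pearson's r of log2(CPM + 10) over 18 clusters of at least 50 cells, both libraries summed, among 2994 genes that reached 100 CPM in a cluster. The clusters share libraries, and the precursor clusters weigh heavily in such values, so they are descriptions. Vpreb1 was most like Vpreb2 (r = 0.98), followed by Cplx2, Igll1, Akap12 and Cecr2. Vpreb3 was most like Chchd10 (r = 0.97), followed by Il12a, Pou2af1, Cpm and Myl4. Rag1 and Rag2 were both most like 1810059H22Rik (r = 0.97 and 0.99), and Xrcc6 and Desi1 were among the 5 most alike for both. Dntt was most like Gm4258 (r = 0.94), followed by Dgcr6, Hibadh, Endou and Uchl5.

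Markers of other sources of precursor cells were read over whole libraries. The bone marrow myeloid progenitor markers together stood at 33.2 CPM in the Early and 13.2 CPM in the Advanced library, and the erythroid markers at 131 and 14.9 CPM, with Car1 at 0 in both. Neutrophil markers stood at 231 and 1110 CPM and thymocyte markers, several of which T cells share, at 263 and 755 CPM. The 7 markers of thymic or lymph node stroma in the files together stood at 22.1 CPM in the Early and 21.5 CPM in the Advanced library. Among them Foxn1, the factor of thymic epithelium, was at 0 in both libraries and Col1a2 at 0 in the Early one. The others had UMIs in both libraries. The part of tissue next to the node in the precursor cells was not tested.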

How the data were processed

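Single-cell RNA was measured with the 10x Genomics 3′ chemistry in 1 Early and 1 Advanced library, each a pool of nodes. The deposited tables hold UMI counts for each gene in each barcode, as whole numbers without normalisation, which the authors made with Cell Ranger (6.0.1 per the file headers, whereas the submitters' processing notes give 3.1 and 3.1.0, Seurat 4.0.3 and mm10). They had called cells before deposit and made no correction for free RNA. The version sets which reads and barcodes count, and the difference was not resolved here.

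Cells with at least 200 genes were kept (21 and 18 barcodes removed), and both libraries were integrated and clustered with Seurat 5.3.0 in R 4.3.3 over 2000 variable features and 30 dimensions at resolution 0.5. The 7 genes and the immunoglobulin and T cell receptor segment genes other than the γ (Tcrg) genes (341) could not serve as variable features. Clusters were named from marker lists, by the markers among their 10 leading genes, with at least 3 markers detected. Clusters that failed this stayed unnamed, among them one of low UMI counts (205 and 318 cells), and a B-cell-like cluster without such a marker needed Cd79a in 90% of its cells, a condition set after the data were seen. No doublets were removed. Scrublet in scanpy 1.11.5 called 5 and 4 cells where loading predicts 6.58% and 6.55%, so its threshold had not worked, and leaving out the 541 and 536 cells with the highest scores was an alternative.

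UMIs were summed per class and library in Python 3.11.15 with scipy 1.17.1. Sums have exact Poisson, shares Clopper-Pearson and ratios exact conditional 95% intervals, for counting error only. A gene was counted as higher or lower when the whole interval of its ratio lay beyond 2-fold among genes with at least 20 UMIs over both groups compared, which compares these 2 libraries and not the conditions. The rule was checked on simulated counts. The 7 genes are named throughout, with up to 5 genes of a list that had the most UMIs in precursor clusters and up to 2 that were lowest, the 5 most alike genes, and a set of lineage genes. Other genes named, such as Bank1, Lig4, Polm and Iglc1, were chosen after their values were seen. The members and lists were chosen with earlier results of these data known. Alternatives were other scalings (edgeR 4.0.16 for the TMM factor only), equal weight per cell, 500 genes per cell, resolution 1, thinning to 2000 UMIs, and a per-cell gate and a stricter lineage rule. Leaving out shared barcodes, the lineage rule by the larger sum of UMIs and profiles within the precursor cluster alone were chosen after seeing the data. A few genes of the lists are not reported here and are left out of the list counts, summed markers and lineage sums.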

Additional observations from a re-analysis of the deposited data

How the results depend on the processing

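No paired analysis was possible because each stage is 1 library, and for the same reason no replicate could be left out. The whole-library ratios of the 7 genes lay on the same side of 1 under all 55 alternatives run, and those within classes under 129 of 133. The 4 others were Vpreb3 in macrophage or monocyte-like cells (1.57, and 0.963 without the highest doublet scores), Dntt in plasmacytoid dendritic-like cells (1.02, and 0.979 likewise), and, with each cell weighted equally, Rag1 in B-precursor-like cells (1.15, then 0.846) and Rag2 in the Arpp21 and Tcrg-C1 cluster (1.07, then 0.937). Of 98 alternatives for the main ratios, shares and gene counts, 27 moved the value beyond its counting interval or a gene count by over 1.5 times. With each cell weighted equally the whole-library ratio was 18.1 for Vpreb1, 0.932 for Vpreb3, 12.9 for Rag1, 9.07 for Rag2 and 5.05 for Dntt. The Vpreb3 ratio was 0.899 with the median-of-ratios factor and 0.893 with the TMM factor over whole libraries, and 0.747 and 0.743 in mature B-cell-like cells, where the per-cell gate gave 0.952. The share of cells with a precursor gene was 0.876% Early and 4.17% Advanced at 2 or more UMIs, and 0.632% and 3.65% after thinning. Among cells with any precursor gene, Cd79a only (57.7% Early, 60.9% Advanced) was 41.5% and 55.4% at 3 Cd79a or 2 Cd3e UMIs, 72.4% and 70.6% by the larger lineage sum, and 40.3% and 53.4% with 2 or more UMIs of the members. Cd3e only (6.50% and 11.5%) was 16.3% and 26.0% by the larger sum, and 18.2% in the Advanced library under the stricter UMIs. Genes past 2-fold numbered 654 higher and 39 lower, 120 and 10 at a minimum of 10 CPM, and 1599 and 112 by the point ratio. The larger lineage sum (Cd79a and Cd79b against Cd3d, Cd3e and Cd3g) was chosen after seeing the data, and the form planned for it was not run. Within the B-precursor-like cluster alone the cell cycle ratio of cells with surrogate light chain over recombinase-only cells was 1.39, against 4.86 with the cycling cluster. The causes of the other shifts were not tested. Without the cell holding the most UMIs Vpreb2 gave no ratio, since its Early UMIs were then 0. Depth limits Vpreb2, Igll1 and Rag2 in the Early library most, with 2, 8 and 17 UMIs.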
